A study of Mus musculus with 2 samples.

Results

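The transcripts of 10 genes whose proteins sense or buffer mechanical load in striated muscle were described in mouse gastrocnemius, the large muscle of the calf. They are 3 muscle ankyrin repeat genes (Ankrd1, Ankrd2 and Ankrd23), 3 LIM-only genes of the FHL family (Fhl1, Fhl2 and Fhl3), Csrp3, the Xin genes Xirp1 and Xirp2, and Smpx. They were taken by symbol, and each symbol was matched to its Ensembl identifier through the deposited transcript names. All 10 were found among the 55536 gene identifiers of the tables.

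Total RNA was sequenced in 2 libraries, each from a different animal. Both animals were adult females of B6CASTF1/J, a first-generation cross of the B6 and CAST strains, 8 to 10 months old and, as far as the labels say, untreated and carrying no engineered allele. Replicates 1 and 2 are animals 1 and 3 of the labels, which give both the same donor identifier but a separate tissue sample each. They form a single group, so there is no comparison between conditions and no p-value, and the spread given is that between these libraries, as mean ± SD with n = 2.

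Muscle ankyrin repeat proteins bind the N2A region of titin, the spring protein of the sarcomere, and also enter the nucleus, where they bind transcription regulators. FHL proteins consist almost wholly of LIM domains, zinc-binding folds held by cysteine and histidine. CSRP3, also called muscle LIM protein, carries LIM domains as well, and these proteins attach to titin, actinin or actin. Xin proteins carry actin-binding repeats and sit at intercalated discs, myotendinous junctions and sites of fibre damage, and SMPX is a small cytoskeletal protein of the Z disc and costamere. RNA of several of these genes is known to rise when muscle is stretched, overloaded or injured.

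The libraries held 42714567 and 43421652 estimated reads on genes for replicates 1 and 2, of which the 10 genes took 0.717% and 0.714%. Levels are given in TPM, a transcript level per unit of length that is scaled to a total of 1000000 within each library. The short RNAs Rn7s1 and Rn7s2 together took 27.0% of that total in replicate 1 and 33.6% in replicate 2, which lowers every other TPM value more in replicate 2. The libraries differed by more than counting error, since a chi-square over 11127 genes was 29.2 per degree of freedom. That value cannot tell separate animals from separate preparations of the same RNA. Markers of skeletal muscle fibres were detected in 6 of 6 cases and summed to 74191 and 65065 TPM. Of 7 heart muscle markers, 2 were detected. The atrial markers Nppa and Myl7 were near 0, but Myh6 of the same list stood at 55.85 and 53.15 TPM in replicates 1 and 2. The second quantification, described below, gave Myh6 a lower mean of 20.9 TPM. In bulk tissue, fewer cells of a type and less RNA per cell cannot be told apart.

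Every one of the 10 genes reached the 1 TPM taken here as detection in each library, and their levels spanned from 1330 TPM for Ankrd23 to 1.15 TPM for Fhl2. Their summed level was 2782 TPM in replicate 1 and 2590 TPM in replicate 2. The order ran Ankrd23, Xirp2, Fhl1, Smpx, Fhl3, Ankrd2, Csrp3, Xirp1, Ankrd1 and Fhl2 by mean TPM. Csrp3 and Xirp1 were the only neighbours in that order whose values overlapped between the animals. Each family had a single dominant gene: Ankrd23 gave 94.8 ± 0.156% of the summed TPM of the ankyrin repeat genes, Fhl1 82.3 ± 1.24% of the FHL genes and Xirp2 91.4 ± 0.865% of the Xin genes.

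**Figure D1:**
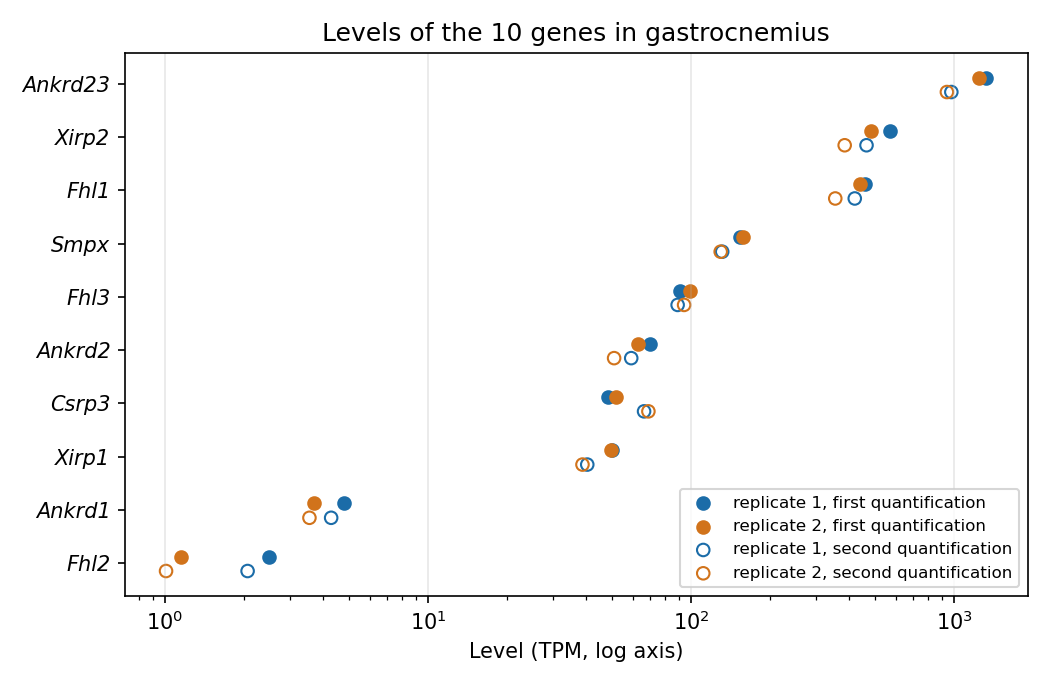
Level of each of the 10 genes in TPM on a log axis, with 1 point per library (colour) and quantification (filled for the first, open for the second). The genes fall from Ankrd23 at 1330 and 1241 TPM in replicates 1 and 2 to Fhl2 at 2.49 and 1.15 TPM, and for most genes the points of both animals lie almost on top of each other.

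A second deposited quantification, made directly from reads rather than from alignments, gave lower TPM for most of the genes. Its median ratio to the first was 0.871 over 9649 protein-coding genes, with an interquartile range of 0.815 to 0.970. Ankrd23 lay below that range, at 0.735 and 0.758 in replicates 1 and 2, and Csrp3 lay far above it, at 1.37 and 1.32. Xirp1 and Xirp2 were also under its lower end in both animals, at 0.807 and 0.782 for Xirp1 and 0.812 and 0.791 for Xirp2. In a single animal, Fhl1 at 0.807 and Ankrd2 at 0.814 lay below it in replicate 2, and Fhl3 at 0.983 lay above it in replicate 1. With the second quantification, Csrp3 therefore stood above Ankrd2 in the order, at 66.4 and 68.9 TPM against 59.3 and 51.0 TPM. Xirp2 and Fhl1 overlapped between the animals there, at 465 and 384 TPM against 420 and 354 TPM, though Xirp2 was higher within each library.

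Ankrd23, also called the diabetes-related ankyrin repeat protein, was the most abundant of the 10 genes. The gene (ENSMUSG00000067653.12) lies on the minus strand of chromosome 1 from 36530188 to 36536883 (mm10). Its level was 1330 TPM in replicate 1 and 1241 TPM in replicate 2, from 74225 and 78698 reads, a mean of 1285 ± 62.9 TPM. It ranked 31 among nuclear protein-coding genes in both animals, of which 10161 and 9809 reached 1 TPM. Within each library its level exceeded that of Ankrd2 by 19.5 ± 0.483 times and that of Fhl1 by 2.86 ± 0.0469 times.

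The quantifications shared reads differently between Ankrd23 and the same-strand gene Gm42417, annotated from 36530193 to 36539429 and so overlapping nearly all of Ankrd23. The first quantification gave Gm42417 2386 and 3554 reads, nearly all of them to its 284-base transcript Gm42417-202, which at that length came to 458 and 600 TPM. The second gave it 23071 and 25598 reads, all to the 2256-base transcript Gm42417-201, and left Ankrd23 with 62068 and 65631 reads. Most reads of the pair still went to Ankrd23 in each case. The reads of Ankrd23 and Gm42417 together were 76611 and 82252 in the first quantification and 85139 and 91229 in the second. Their summed TPM was 1788 and 1841 in the first and 1281 and 1227 in the second, so it was lower in the second as well. The part of the overlap in the lower Ankrd23 level of the second was not tested.

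Most Ankrd23 RNA was assigned to models with upstream starts, at 36536521 for Ankrd23-202 and 36536883 for Ankrd23-203. Ankrd23-202, whose annotated product has 192 codons, had 82.5% and 80.7% of the gene's TPM in replicates 1 and 2, and 77.7% and 71.1% by the second quantification. Ankrd23-204, with 273 codons and the downstream start, had 14.9% and 16.2% in the first and 2.31% and 1.93% in the second. The full-length model of 306 codons, Ankrd23-201, had 2.55% and 3.08% in the first and almost nothing in the second. The noncoding Ankrd23-203 had 0.04% in each animal in the first quantification but 20.04% and 26.9% in the second. Ankrd23-202 and Ankrd23-203, which do not share a start, together held 81.6 ± 1.27% in the first and 97.9 ± 0.270% in the second. Ankrd23-202 alone led in both.

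The bases before both Ankrd23 starts are shown because these starts divide the gene's RNA, each as 250 bases of the minus strand from RefSeq (GRCm38.p6), chr1:36536557-36536806 for the upstream start and chr1:36535740-36535989 for the downstream start. Capitals mark CATTCC, the core of the MCAT element that TEAD factors bind, which is present in the downstream window and not in the upstream window.
Ankrd23 upstream start: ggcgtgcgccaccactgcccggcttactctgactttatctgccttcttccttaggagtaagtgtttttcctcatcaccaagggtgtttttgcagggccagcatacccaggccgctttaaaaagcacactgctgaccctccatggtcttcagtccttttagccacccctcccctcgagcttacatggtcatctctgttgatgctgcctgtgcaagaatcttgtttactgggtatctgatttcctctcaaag
Ankrd23 downstream start: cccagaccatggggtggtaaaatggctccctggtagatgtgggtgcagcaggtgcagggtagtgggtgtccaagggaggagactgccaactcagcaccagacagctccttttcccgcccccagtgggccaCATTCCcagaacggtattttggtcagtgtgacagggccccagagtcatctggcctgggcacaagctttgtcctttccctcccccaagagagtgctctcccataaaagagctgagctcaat

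Ankyrin repeats have about the same length in all proteins that carry them, and the 3 genes share that pattern in their exons. Ankrd1-205, Ankrd2-201, Ankrd2-202, Ankrd23-201 and Ankrd23-202 each have 4 coding exons of 99 bases, or 33 codons. Ankrd23-204 has 3 of them. The exon it lacks is shown because it is the coding difference between Ankrd23-204 and Ankrd23-201, read from the GENCODE M21 transcript (GRCm38, chr1:36531909-36532007, minus strand).
Ankrd23 exon: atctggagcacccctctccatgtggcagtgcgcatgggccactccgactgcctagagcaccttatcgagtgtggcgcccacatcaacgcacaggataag

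Ankrd2, which binds titin N2A and is known to be enriched in slow fibres, stood at a far lower level. The gene (ENSMUSG00000025172.3) lies on the plus strand of chromosome 19 from 42036000 to 42045110. Its level was 69.6 and 62.7 TPM in replicates 1 and 2, from 1987 and 2048 reads, a mean of 66.1 ± 4.88 TPM. It gave 4.88 ± 0.113% of the summed TPM of the ankyrin repeat genes.

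Its annotated transcripts differ by 38 bases at the 5′ end and by the start codon, which gives 332 codons in Ankrd2-202 and 328 in Ankrd2-201. The first quantification divided them nearly evenly, with 54.1% and 58.7% for Ankrd2-201 in replicates 1 and 2 and 45.9% and 41.3% for Ankrd2-202, whereas the second gave nearly all of the gene to Ankrd2-202. The first 60 coding bases of Ankrd2-202 (GENCODE M21, chr19:42036036-42036095, plus strand) are shown because they hold the start codons of both transcripts, in capitals, in the same reading frame.
Ankrd2-202: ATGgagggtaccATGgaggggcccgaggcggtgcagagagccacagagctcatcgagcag

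Ankrd1, the cardiac ankyrin repeat protein and a known YAP target, was near the lower limit of detection. The gene (ENSMUSG00000024803.9) lies on the minus strand of chromosome 19 from 36111961 to 36120099. Its level was 4.81 TPM in replicate 1 and 3.69 TPM in replicate 2, a mean of 4.25 ± 0.792 TPM. These rest on 244 and 227 reads, with exact 95% Poisson intervals of 214 to 277 and 198 to 259 that cover counting error only. It ranked 6561 and 6907 among nuclear protein-coding genes, and within each library Ankrd2 exceeded it by 15.7 ± 1.78 times.

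The assignment of Ankrd1 reads to transcripts differed between the animals. Ankrd1-205, the longest coding model with 319 codons, had 30.2% of the gene's TPM in replicate 1 and 96.3% in replicate 2, and 57.5% and 91.4% by the second quantification. Ankrd1-201, with 315 codons, had 14.4% and 1.12% in the first and 22.0% and almost nothing in the second. Ankrd1-203 led in replicate 1 of the first quantification with 32.7%, was at 0 in replicate 2, and had 6.22% and 0 in the second. Ankrd1-204 had 21.95% and 0 in the first and 14.2% and 6.26% in the second. Together, models annotated as subject to nonsense-mediated decay, which include Ankrd1-203 and Ankrd1-204, had 54.7% in replicate 1 and 0 in replicate 2 in the first quantification, and 20.5% and 6.26% in the second. Ankrd1 was the only gene of the 10 whose leading transcript differed between the animals in the first quantification. Ankrd1-205 held only 78.4 and 220 reads there, so these shares rest on few reads.

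The coding sequences of the ankyrin repeat genes were about equally distant from each other. Identity over aligned bases was 66.4% between Ankrd1-205 and Ankrd2-201, 65.2% between Ankrd2-201 and Ankrd23-201, and 61.5% between Ankrd1-205 and Ankrd23-201.

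Fhl1, the main FHL gene of skeletal muscle, in which human mutations cause X-linked myopathies, led its family. The gene (ENSMUSG00000023092.16) lies on the plus strand of chromosome X from 56731787 to 56793346. Its level was 459 TPM in replicate 1 and 438 TPM in replicate 2, from 22095 and 24172 reads, a mean of 449 ± 14.6 TPM. It ranked 100 and 97 among nuclear protein-coding genes. Within each library its level exceeded that of Fhl3 by 4.75 ± 0.455 times and that of Fhl2 by 283 ± 139 times.

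The 10 annotated Fhl1 transcripts fall into 3 groups by where they start, and the quantifications assigned the RNA to different groups. In the first quantification Fhl1-204, which starts at 56779723, held 67.5% and 68.0% of the gene's TPM in replicates 1 and 2, a mean of 67.8 ± 0.354%. In the second quantification Fhl1-204 was listed at 0 in both animals, and Fhl1-201, which starts at 56731787, held 57.7% and 64.2%. Fhl1-201 itself had only 3.52% and 2.97% in the first. The transcripts of the upstream starts (Fhl1-201, Fhl1-203 and Fhl1-206) therefore summed to 3.49 ± 0.467% in the first quantification and 67.1 ± 6.70% in the second. Those of the middle starts (Fhl1-202, Fhl1-204, Fhl1-205 and Fhl1-210) summed to 79.5 ± 0.212% and 14.8 ± 9.33%. The leading transcript was the same in both animals within each quantification, so that difference lay between the methods and not between the animals.

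Fhl1-201 and Fhl1-204 share 2211 bases, and only 145 bases of Fhl1-201 and 72 of Fhl1-204 are in one and not the other. Reads that separate them must touch those few bases, most of them at the 5′ end, and read alignments were not analysed here, so which start was used in these animals was not tested.

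**Figure D2:**
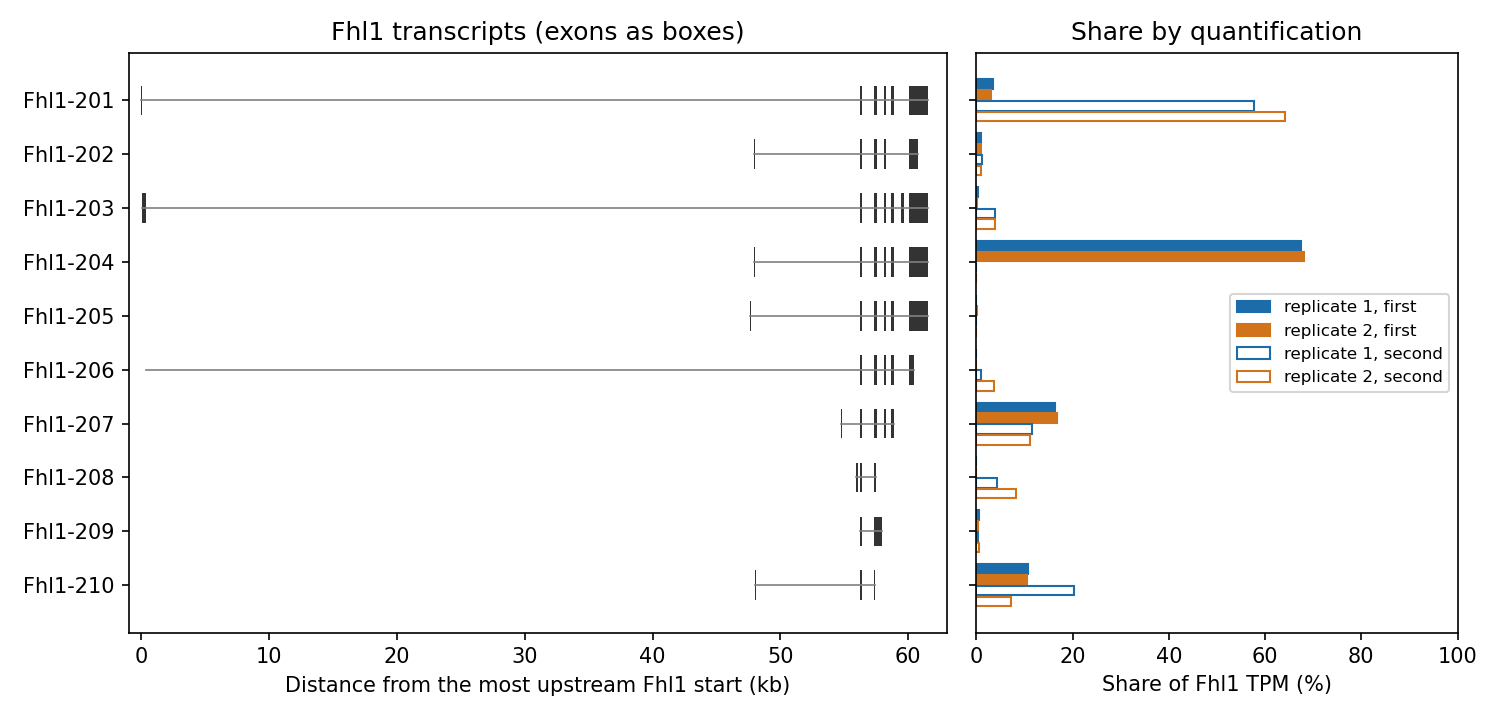
Exon maps of the 10 Fhl1 transcripts by distance in kilobases from the first annotated start, with the share of the gene's TPM in percent for each library and quantification beside them. Fhl1-204 leads with 67.5% and 68.0% in the first quantification and is at 0 in the second, where Fhl1-201 leads with 57.7% and 64.2%.

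The downstream starts, all of incomplete models, were given like amounts by both quantifications as a group, but not as single transcripts. Fhl1-207, an incomplete model that starts at 56786527, had 16.4% and 16.8% in the first and 11.5% and 11.1% in the second, and the downstream group (Fhl1-207, Fhl1-208 and Fhl1-209) summed to 17.0 ± 0.255% and 18.1 ± 2.63%. Fhl1-208 had 0 in both animals in the first quantification and 4.32% and 8.22% in the second. The incomplete Fhl1-210 had 10.8% and 10.6% in the first, but 20.3% in replicate 1 and 7.23% in replicate 2 in the second. Fhl1-202 stood at 1.04% and 0.92% in the first and 1.09% and 0.993% in the second. Fhl1-203 stood at 0.30% and 0.19% against 3.78% and 3.88%. Fhl1-206 had 0.897% and 3.76% in the second, and Fhl1-209 had 0.45% and 0.41% in the first. Fhl1-205 was at or near 0 throughout.

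The inner coding exons of Fhl1 were assigned more alike by the quantifications than its starts, while the N-terminal coding part changed with the start. The product of 296 codons from Fhl1-204 went from 67.8% in the first to 0 in the second, and Fhl1-201, with 280 codons, held 61.0 ± 4.603% in the second. The transcripts with the common inner coding exons (Fhl1-201, Fhl1-204, Fhl1-205 and Fhl1-206) summed to 71.1 ± 0.0707% in the first quantification and 63.3 ± 6.63% in the second, and incomplete models took most of the rest. Among complete models, the common form held 98.3 ± 0.221% in the first and 92.8 ± 0.695% in the second. Fhl1-203, which adds an exon and has 323 codons, held 0.340 ± 0.111% and 5.64 ± 0.446% of the complete models. Fhl1-202, which lacks the penultimate coding exon and has 210 codons, held 1.36 ± 0.111% and 1.54 ± 0.2497%. Fhl1-204 is longer than Fhl1-201 because its coding region begins in its own first exon.

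The alternative exons are shown because they separate the encoded forms, both read from GENCODE M21 transcripts (GRCm38, plus strand), with in-frame cysteine codons, the zinc-binding residues of LIM domains, in capitals. The exon of Fhl1-204 that Fhl1-202 lacks, chrX:56790464-56790650, has 187 bases and 7 cysteine codons in 62 whole codons. The exon of Fhl1-203 alone, chrX:56791239-56791438, has 200 bases and 2 cysteine codons in 66.
Fhl1-204 exon: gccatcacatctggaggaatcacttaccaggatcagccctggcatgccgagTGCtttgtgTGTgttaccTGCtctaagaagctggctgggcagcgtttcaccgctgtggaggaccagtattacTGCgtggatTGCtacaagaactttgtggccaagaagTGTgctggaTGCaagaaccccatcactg
Fhl1-203 exon: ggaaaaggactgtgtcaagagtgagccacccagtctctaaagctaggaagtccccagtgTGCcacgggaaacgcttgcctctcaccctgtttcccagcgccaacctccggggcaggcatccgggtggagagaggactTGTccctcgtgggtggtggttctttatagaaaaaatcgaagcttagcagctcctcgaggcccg

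The bases before the starts of Fhl1-204 and Fhl1-207 are shown because these starts were given most of the RNA by the first quantification, each as 250 bases of the plus strand from RefSeq. The window of the RefSeq start at 56779683, near the starts of Fhl1-202 and Fhl1-204, is chrX:56779433-56779682 and contains a CArG box, the element that SRF binds, in capitals. The window of the start of Fhl1-207 is chrX:56786277-56786526 and contains none. No window was given for the upstream starts, which the second quantification assigned 67.1% of the RNA, so they were not searched.
Fhl1 middle start: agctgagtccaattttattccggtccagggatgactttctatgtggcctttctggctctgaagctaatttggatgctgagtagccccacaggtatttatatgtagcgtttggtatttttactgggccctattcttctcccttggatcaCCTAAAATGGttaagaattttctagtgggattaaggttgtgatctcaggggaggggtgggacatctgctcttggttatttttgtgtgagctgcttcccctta
Fhl1 downstream start: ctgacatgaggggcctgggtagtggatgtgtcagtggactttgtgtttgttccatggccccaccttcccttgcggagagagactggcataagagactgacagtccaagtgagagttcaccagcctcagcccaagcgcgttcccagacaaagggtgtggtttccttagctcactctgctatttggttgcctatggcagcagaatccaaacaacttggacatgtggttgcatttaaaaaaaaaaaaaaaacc

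Fhl3, an FHL gene of skeletal muscle whose product binds actin, was the next of its family. The gene (ENSMUSG00000032643.12) lies on the plus strand of chromosome 4 from 124700701 to 124708611. Its level was 90.6 TPM in replicate 1 and 99.1 TPM in replicate 2, from 3769 and 4814 reads, a mean of 94.8 ± 6.01 TPM. It gave 17.4 ± 1.41% of the FHL sum. Fhl3-201, with 289 codons, led with 84.9% and 90.1% of the gene's TPM in the first quantification and 67.3% and 67.0% in the second. Fhl3-202, with 280 codons, had 14.3% and 9.31% in the first and 32.1% and 32.5% in the second.

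Fhl2, the FHL gene best known from heart muscle, was the least abundant of the 10 genes. The gene (ENSMUSG00000008136.14) lies on the minus strand of chromosome 1 from 43123074 to 43196984. Its level was 2.49 TPM in replicate 1 and 1.15 TPM in replicate 2, a mean of 1.82 ± 0.948 TPM. These rest on 102 and 54 reads, with exact 95% Poisson intervals of 83.2 to 124 and 40.6 to 70.5, which cover counting error and not the spread between animals. Nearly all of it was Fhl2-201, at 95.9% and 100%, and Fhl2-202 had 4.14% in replicate 1 and 6.03% there in the second quantification.

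The FHL genes have like cysteine content and differ in sequence. Coding identity was 68.3% between Fhl1-204 and Fhl2-201, 64.7% between Fhl1-204 and Fhl3-201 and 64.6% between Fhl2-201 and Fhl3-201. Cysteine made up 11.5% of the codons of Fhl1-204, 12.5% of those of Fhl2 and 12.1% of those of Fhl3, and 8.25% of those of Csrp3. In the leading or longest models of the ankyrin repeat and Xin genes it made up between 0.915% in Ankrd2-201 and 2.60% in Ankrd23-202, and the 85 codons of Smpx held 0.

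Csrp3, which encodes muscle LIM protein and is known for its role at the Z disc and its higher level in slow fibres, stood near Xirp1. The gene (ENSMUSG00000030470.15) lies on the minus strand of chromosome 7 from 48830398 to 48848033. Its level was 48.6 TPM in replicate 1 and 52.0 TPM in replicate 2, from 1064 and 1303 reads, a mean of 50.3 ± 2.45 TPM. The first quantification assigned 99.8% and 99.9% to Csrp3-201. The second gave Csrp3-201 62.4% and 63.7%, and assigned 37.0% and 36.2% to Csrp3-203, a model of 362 bases whose end was not found. Read counts differed little, at 1118 and 1367 in the second quantification, so the higher Csrp3 TPM there went with the assignment to a short model.

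Smpx, a small protein whose human gene is linked to inherited deafness, stood at a higher level. The gene (ENSMUSG00000041476.12) lies on the plus strand of chromosome X from 157698910 to 157752591. Its level was 154 TPM in replicate 1 and 157 TPM in replicate 2, from 3676 and 4231 reads, a mean of 156 ± 2.31 TPM. Within each library its level exceeded that of Csrp3 by 3.10 ± 0.105 times in the first quantification and by 1.93 times on average in the second.

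The Smpx transcripts that led have the same 85 codons and differ outside them. Smpx-203 had 62.3% and 67.6% of the gene's TPM in the first quantification and 10.7% and 15.1% in the second, while Smpx-208 had 34.3% and 28.4% in the first and 77.5% and 73.4% in the second. Smpx-201 had 5.07% and 5.93% in the second quantification and 0 in the first. An exon of 35 bases at 157751595 to 157751629, after the stop codon, is in Smpx-208 and not in Smpx-203. Transcripts with that exon summed to 33.9 ± 3.68% in the first quantification and 80.9 ± 2.23% in the second. The leading form therefore exchanged places between the quantifications in both animals.

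**Figure D3:**
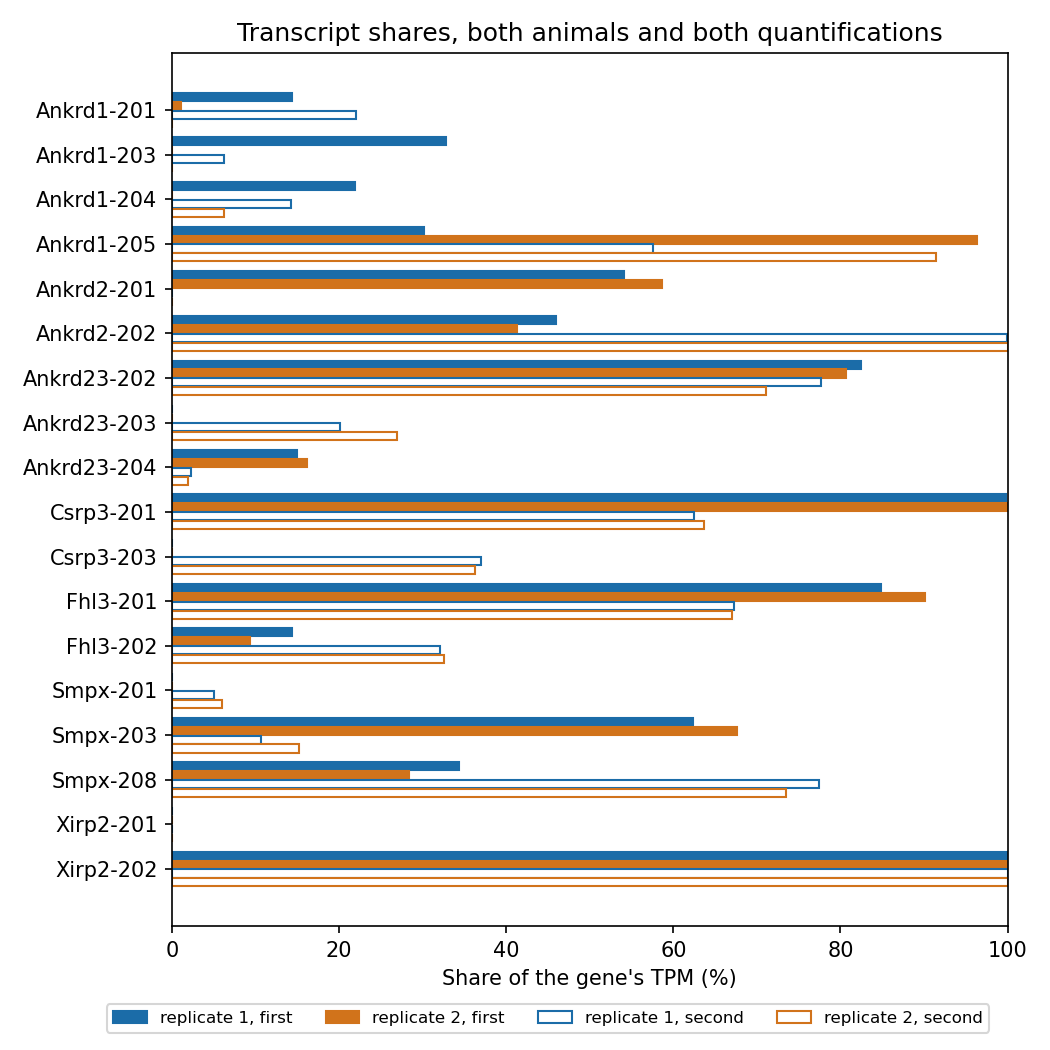
Share of the gene's TPM in percent for transcripts of 7 genes other than Fhl1, for each library (colour) and quantification (filled for the first, open for the second). Xirp2-202 fills its gene in all cases, whereas Ankrd2-201, Csrp3-203 and Smpx-208 differ between the filled and open bars in both animals.

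Xirp2, an actin-binding Xin repeat gene and a known target of MEF2 factors, was the second most abundant of the 10 genes by TPM and the first by reads. The gene (ENSMUSG00000027022.13) lies on the plus strand of chromosome 2 from 67446002 to 67526614. Its level was 573 TPM in replicate 1 and 486 TPM in replicate 2, from 191053 and 185557 reads, a mean of 529 ± 61.8 TPM. It exceeded Xirp1 by 10.6 ± 1.17 times within each library, and by 10.7 ± 1.13 times in the second quantification.

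Xirp2 was the case in which quantifications and animals gave the same answer at the level of a splice site. Both quantifications assigned 100% of the gene in both animals to Xirp2-202, and Xirp2-201 had 0 reads in the first. The transcripts share 11955 bases and differ by 24, of which 8 are at the 3′ end and 16 are at an acceptor site after the exon of 9265 bases. The exon begins at 67519220 in Xirp2-202 and at 67519236 in Xirp2-201. With the 16 bases the reading frame shifts and the annotated stop codon of Xirp2-202 lies in that same exon, so its product has 3283 codons against 3784 for Xirp2-201. The junction is shown because those bases separate the products, as the last 20 bases of the long exon and the first bases of the next, with the 16 bases of chr2:67519220-67519235 in capitals (GENCODE M21, GRCm38, plus strand).
Xirp2-202: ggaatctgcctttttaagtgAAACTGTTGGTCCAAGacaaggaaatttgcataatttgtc
Xirp2-201: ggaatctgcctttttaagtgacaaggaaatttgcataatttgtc

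Xirp1, the Xin gene first studied in heart, had a log2 ratio of TPM between the animals of -0.015 against -0.24 for Xirp2. The median of all genes in that ratio was -0.17. Under TMM, where the median of all genes was -0.0024, the log2 ratios were 0.16 for Xirp1 and -0.06 for Xirp2. Which of the Xin genes differed more therefore changed with the scaling. The gene (ENSMUSG00000079243.3) lies on the minus strand of chromosome 9 from 120013755 to 120023598. Its level was 50 TPM in replicate 1 and 49.5 TPM in replicate 2, from 8053 and 9135 reads, a mean of 49.7 ± 0.361 TPM. Xirp1-201, with 1132 codons, held all of it in both animals.

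Of the 44 annotated transcripts of the 10 genes, the leading one was the same in both animals and both quantifications for 6 genes. Between the animals alone it was the same for 9 genes in the first quantification and for 10 in the second.

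RefSeq promoter windows matched 9 of the 10 genes, with 13 windows, and none was given for Xirp1. The upstream Fhl1 starts and the start of Ankrd23-203 had no window either. Motifs were searched on both strands in the 250 bases before each start, and matches describe letters only. CATTCC was found in 12.6% of 32851 RefSeq promoters and in 2 of the 13 windows, that of Ankrd1, at 210 and 123 bases before the start, and that of the downstream Ankrd23 start, at 120 bases. The Ankrd1 window precedes a RefSeq start at 36119844. It lies within the span of Ankrd1-205, which starts at 36120099, and the other Ankrd1 models start at 36119910. A CArG box was found in 1.47% of promoters and in 3 of the 13 windows, in Fhl1 at 102 bases and in both Fhl2 windows at 31 and 96 bases. The first of these in Fhl2 overlaps a TATAA, which 22.8% of promoters hold. A MEF2 box was found in 2.92% of promoters and in 2 of the 13 windows, that of Xirp2 at 74 bases and 1 of Fhl2 at 31 bases, where it overlaps TATAA letters. The Fhl2 window with both boxes precedes the start of Fhl2-203, which had 0 reads in both animals and both quantifications. The E box CANNTG was found in 66.2% of promoters, too common to set any window apart.

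Of the 10 genes, Fhl2 differed most between the animals. On expected counts scaled by edgeR's TMM, 0 of the 10 genes differed by 2-fold or more, where 155 of 11127 genes did (1.39%). At so small a share, 0 of 10 does not set these genes apart. The absolute log2 ratio of all genes had a median of 0.12 and an upper quartile of 0.25, which Fhl2, Fhl3 and Csrp3 exceeded. Their log2 ratios of replicate 2 over replicate 1 ran from -0.92 to 0.33 with a median of 0.08, and the median of all genes was -0.0024. Fhl2 was 1.89-fold lower in replicate 2, a log2 ratio of -0.92. Fhl3 had a log2 ratio of 0.33, Csrp3 0.27, Smpx 0.18, Xirp1 0.16, Fhl1 0.11, Ankrd23 0.06 and Ankrd2 0.02. Xirp2 and Ankrd1 were lower in replicate 2, with -0.06 and -0.13.

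The scaling decides the sign of the smallest of these ratios. Scaling by spike-ins moved the median of all genes to -0.12 and that of the 10 genes to -0.04, and Ankrd2, Ankrd23 and Fhl1 then lay below 0. The ratio of TPM moved the median of all genes to -0.17 and that of the 10 genes to -0.08, and Xirp1 lay below 0 as well. Ankrd2 was also just below 0 in the second quantification. Fhl3, Csrp3 and Smpx were higher in replicate 2, and Fhl2, Ankrd1 and Xirp2 lower, under each scaling and quantification tried. Fhl2 passed 2-fold with spike-in scaling, at -1.03, where 1.64% of genes passed, and in the ratio of TPM, at -1.11, where 2.64% did.

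**Figure D4:**
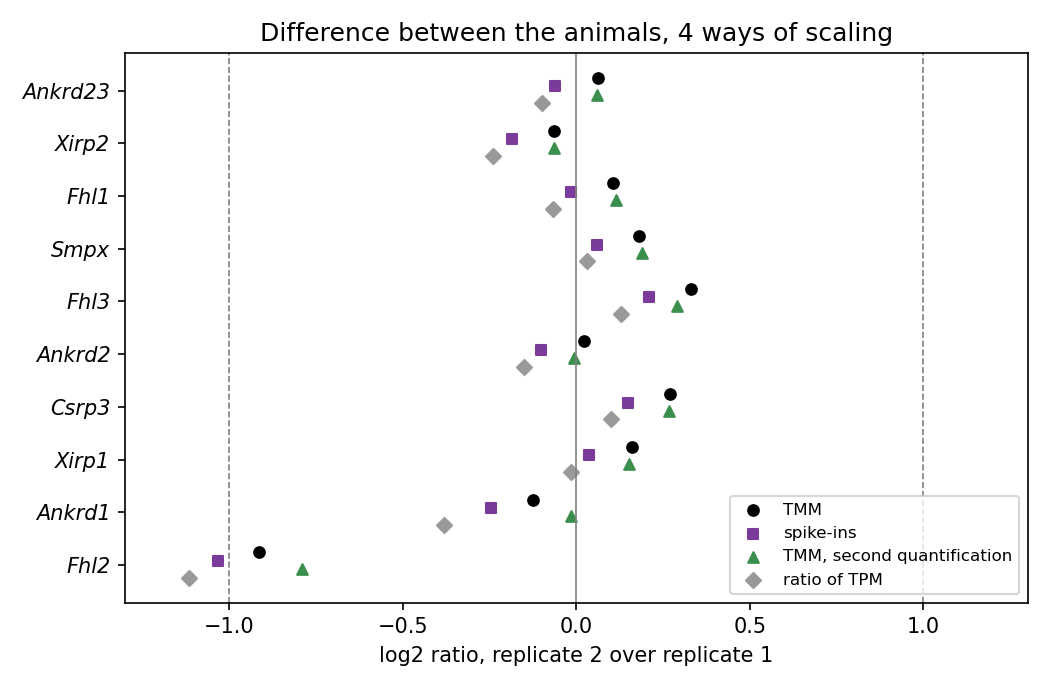
Log2 ratio of replicate 2 over replicate 1 for each of the 10 genes under TMM, spike-in scaling, TMM on the second quantification and the ratio of TPM, with 2-fold marked by dashed lines. Fhl2 lies near the mark at -0.92, and the other genes lie between -0.13 and 0.33 under TMM.

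Markers of several other cell types were lower in replicate 2, as Fhl2 was. TPM values are lowered more in replicate 2, as given above, so median log2 ratios under TMM are given beside the sums. The median of all genes was -0.0024. Schwann cell markers summed to 50.7 TPM in replicate 1 and 11.3 TPM in replicate 2, and 4 of 4 that entered the comparison were at least 2-fold higher in replicate 1, where 0.71% of all genes were. Fibroblast markers summed to 141 and 104 TPM, with 5 of 6 higher in replicate 1 (median -0.26). Smooth muscle and pericyte markers summed to 111 and 86.3 TPM (median -0.12) and endothelial markers to 42.3 and 32.7 TPM (median -0.18), with 5 of 5 higher in replicate 1 in each list under TMM. Tendon markers summed to 38.4 and 27.2 TPM, with 4 of 4 higher in replicate 1 under TMM (median -0.31). Endothelial markers were 4 of 5 with DESeq2 size factors and in the second quantification. Tendon markers were 3 of 4 in the second quantification, and smooth muscle and pericyte markers 4 of 5 in the ratio of TPM. No marker of these lists was at 0 in both animals. Macrophage markers (4.66 and 4.58 TPM, median 0.08) and satellite cell markers (12.6 and 12.2 TPM, median 0.15) had like sums. Only 2 of 5 and 1 of 5 of them were detected. Adipocyte markers, with Ucp1 at 0 and 1 of 5 detected, summed to 4.30 and 3.46 TPM (median -0.33 over the 2 that entered). Heart muscle markers summed to 59.2 and 56.7 TPM, nearly all of it Myh6, whose level was lower in the second quantification. The part of these cell types in the Fhl2 values was not tested.

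Slow fibre markers were higher in replicate 2, as were Fhl3, Csrp3 and Smpx, and Xirp1 except in the ratio of TPM. Ankrd2 stood near 0, at 0.02 under TMM, and these genes are grouped here after their values were seen. The markers had a median log2 ratio of 0.29, with 9 of 9 higher in replicate 2 under TMM and with spike-ins and 7 of 9 in the ratio of TPM, and 0 passed 2-fold. Fast fibre markers had a median of -0.02, with 3 of 9 higher in replicate 2. The part of fibre type in the values of these genes was not tested.

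Partners of the 10 proteins at the Z disc and on titin were abundant. Of 20 such genes, 19 were detected, and Nebl was not. The highest were Actn3, the actinin of fast fibres, at 4502 ± 597 TPM, titin (Ttn) at 4140 ± 643 TPM, its cap protein Tcap at 1831 ± 60.9 TPM and the calcineurin-binding Myoz1 at 1358 ± 115 TPM. Ankrd23 therefore stood close to Myoz1 in level. Of the 19 that entered the comparison between animals, 15 had a higher value in replicate 2 under TMM (median log2 ratio 0.10), but 8 did with spike-ins (median -0.02), and 0 passed 2-fold.

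Other LIM-only and Csrp family genes were at lower levels than Fhl1 and Fhl3, with 6 of 8 detected. The highest were Lmcd1 at 52.4 ± 5.06 TPM, Crip1 at 25.4 ± 4.99 TPM, Crip2 at 9.71 ± 0.884 TPM and Lmo4 at 8.78 ± 0.566 TPM. Of the 6 that entered, 4 had a higher value in replicate 1 (median log2 ratio -0.15), and 0 passed 2-fold. Fhl5 had 128 and 74 reads and a log2 ratio of -0.80, the same direction as Fhl2, and Fhl4 had 2 reads and 0. Fhl5 and Fhl4 are named here because they complete the FHL family.

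Nuclear partners and upstream factors of these genes were detected in 16 of 18 cases. The highest were Ybx1, which binds ANKRD1 and ANKRD2, at 262 ± 17.2 TPM, Mef2c at 188 ± 17.8 TPM, the MCAT-binding factor Tead1 at 81.1 ± 4.01 TPM and Mef2d at 73.2 ± 7.79 TPM. The heart factors Gata4 and Nkx2-5 were the 2 not detected. Of the 16 that entered, 11 had a higher value in replicate 2 under TMM (median log2 ratio 0.09), but 5 did with spike-ins (median -0.03), and 0 passed 2-fold.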

How the data were processed

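The authors deposited, per the labels and the deposited descriptions, a gene table and a transcript table from transcriptome alignments (the first quantification) and a transcript table made directly from reads (the second), on mm10 with GENCODE M21. Which programs made them is not given in the sources used here. Expected counts, as deposited, are estimates of reads without normalization that divide a read among the transcripts it matches. TPM, as deposited, corrects for length and is scaled to 1000000 over all features, spike-ins included. The percent column deposited by the authors is the part of a gene's TPM given to each transcript. Deposited posterior SDs and credibility bounds were read and not used in a comparison. Per the labels, 300 ng of RNA with ribosomal RNA reduced entered a directional kit with ERCC spike-ins. No columns were left out.

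Expected counts were rounded to whole numbers, scaled by TMM in edgeR 4.0.16 (R 4.3.3), and log2 ratios of CPM (prior count 2) were computed over genes with a mean count of at least 50. A gene was called detected at 1 TPM in both libraries. Second-quantification values were summed to genes. Poisson intervals of 95% cover counting error only. A count of 0 allows up to 0.0702 and 0.0691 CPM, from 3 counts. The step was tested on simulated data. Tables used Python 3.11.15, pandas 2.3.3, NumPy 2.4.6, SciPy 1.17.1 and Biopython 1.88. Identity was taken over aligned bases of the coding sequences.

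The 10 genes and all gene and marker lists were chosen with earlier results of these data known. Named are all 10 genes, all Fhl1 transcripts, other transcripts with at least 5% of their gene in either library, and the 4 highest genes of each partner list. Fhl4, Fhl5, Myh6 and genes named as undetected were named after their values were seen. 1 further gene of the marker lists is not reported here. Alternatives were spike-in scaling, size factors of DESeq2 1.42.0, other prior counts, count minimums and TPM thresholds, posterior mean TPM, rescaled TPM, the second quantification and leaving out each animal.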

Additional observations from a re-analysis of the deposited data

How the results depend on the processing

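The summed TPM of the 10 genes, 2686 ± 136, was 2161 by the second quantification and 5876 when TPM was rescaled over nuclear protein-coding genes. By the second quantification the Ankrd2 share was 5.41%, the Fhl1 share 80.5% and the Fhl1-204 share 0, and Fhl1-204 held 86.3% of Fhl1 when shares were taken from expected counts. With spike-in scaling 1 of the 10 genes, Fhl2, passed 2-fold, and 1 did in the ratio of TPM, again Fhl2. Leaving out either animal gave a summed TPM of 2590 to 2782, an Ankrd2 share of 4.796% to 4.96%, an Fhl1 share of 81.4% to 83.1%, an Xirp2 share of 90.8% to 92.0% and an Fhl1-204 share of 67.5% to 68.0%. The number detected was 10 throughout, except 8 at a threshold of 10 TPM, where Ankrd1 and Fhl2 fell out. For single genes, 81 alternative values stayed within the criteria used and 9 moved, by more than the spread between animals. DESeq2 size factors, a prior count of 0.5 and count minimums of 10 or none changed no sign. Causes of these shifts were not tested. Depth limits Ankrd1 and Fhl2 most, with under 300 reads in each library. No paired analysis was possible because both libraries belong to the same group.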
